A study of Gallus gallus with 9 samples.

Results

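Actin isoform genes encode near-identical proteins that polymerise into the thin filaments of muscle and the cytoskeletal filaments of all cells. Of the 6 genes sought by symbol, 4 had a row of that name in the expression tables of this chicken myogenesis series. These list 24881 Ensembl genes, of which 11078 carried a symbol. ACTB and ACTG1 encode the cytoplasmic beta and gamma actins, ACTA2 the alpha actin of vascular smooth muscle, and ACTG2 the gamma actin of visceral smooth muscle. No row carried the symbol ACTA1 or ACTC1, the skeletal and cardiac alpha actins that build sarcomeres, so both were not analysed here. Either may lie in a row without a symbol, and a missing symbol here or below does not show that a gene was absent. Each share given below is therefore a share of the 4 genes measured and not of all actin. How reads shared by near-identical copies were counted is not stated, so each level is uncertain to that extent. All 4 passed the filter on low counts, with 782 reads or more in every library.

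The 9 RNA sequencing libraries came from chicken embryo skeletal muscle myoblasts labelled passage 1, in 3 groups of 3. PM cells were primary myoblasts taken straight after serial plating, a step that enriches myoblasts. GM cells were labelled proliferating myoblasts, in RPMI-1640 with 15% fetal bovine serum. DM cells were labelled differentiated myotubes after 4 days in RPMI-1640 with 2% horse serum. Both media also held penicillin and streptomycin, and the sources used here state neither embryo age, pooling of embryos nor the number of separate cultures, so a p-value speaks to the spread among these samples alone. Libraries held 15731818 to 27110310 reads on Ensembl genes.

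As background, proliferating myoblasts use the cytoplasmic actins for shape, adhesion and movement. During differentiation muscle cells replace much of this with sarcomeric alpha actins. ACTA2 is best known from vascular smooth muscle and from myofibroblasts, and in vertebrate embryos it is also transcribed for a time in developing heart and skeletal muscle. Transcription of many actin genes is controlled by SRF, a factor that binds the CArG box and is activated by cofactors that sense the pool of unpolymerised actin.

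The labelled cell type was checked against its markers. Of 7 muscle precursor markers with a row, the regulators MYOD1 and MYOG were measured in every group, at 332 ± 11.7, 254 ± 37.2 and 145 ± 11.2 FPKM for MYOD1 and 177 ± 8.53, 367 ± 138 and 300 ± 27.0 FPKM for MYOG in PM, GM and DM (SD, n = 3 each, as throughout). FPKM is a level per kilobase of transcript and scaled to sequencing depth. The regulators MYF5 and MYF6 were lowest in DM. MYF5 stood at 406 ± 22.2, 294 ± 94.7 and 37.0 ± 8.65 FPKM and MYF6 at 102 ± 3.89, 44.0 ± 10.4 and 10.95 ± 2.06 FPKM. DES, the muscle intermediate filament gene that rises in differentiating muscle, stood at 155 ± 3.66, 811 ± 407 and 142 ± 7.98 FPKM. Taken alone, its lower level in DM than in GM goes against the myotube label of DM. Its rise from PM to GM goes equally against the proliferating label of GM. DES and MYOG were the 2 of the 7 that rose from PM to GM (log2 fold changes 2.26 and 0.91), and 3 fell. MYOG was the 1 that rose from PM to DM (0.67, edgeR adjusted p = 0.0311), and 3 fell. Other muscle genes did not all move as DES did. From PM to DM, DES was not called (log2 fold change -0.21), while 7 of 15 sarcomeric thin filament partners rose and 5 fell. Neither label was tested further. No row carried the symbol PAX7. GM replicate 3 stood apart from the other GM libraries. The 7 muscle precursor markers summed to 2758 FPKM there against 1816 and 1624 FPKM in GM replicates 1 and 2. The 9 fibroblast markers summed to 1311 FPKM against 2096 and 2172 FPKM. The list called muscle precursor markers includes DES, MYOG and TMEM8C, at 811 ± 407, 367 ± 138 and 118 ± 45.6 FPKM in GM. Its sum therefore does not measure precursors alone.

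Cytoplasmic ACTB (ENSGALG00000009621, chromosome 14, 4191291 to 4195531, minus strand) was the most abundant actin in every library. It stood at 7822, 7668 and 7897 FPKM in PM replicates 1 to 3, at 6519.8, 6074 and 5454 FPKM in GM and at 3624, 3407 and 3353 FPKM in DM. The groups did not overlap, with PM highest and DM lowest. Among all genes ordered by FPKM it ranked 2 to 3 in PM, 3 to 7 in GM and 11 in each DM library. ACTB fell from PM to GM (fitted log2 change -0.52, SE 0.08, adjusted p = 9.03e-05 by edgeR) and fell again from GM to DM (fitted log2 change -0.74, SE 0.08, adjusted p = 7.72e-06 by edgeR). From PM to DM the fitted decrease was 2.40-fold (fitted log2 change -1.26, SE 0.08, adjusted p = 1.30e-07 by edgeR). In bulk samples, fewer cells of a type and less RNA per cell cannot be told apart.

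Smooth muscle ACTA2 (ENSGALG00000006343, chromosome 6, 19231810 to 19241381, minus strand) had the widest fold range of the 4 genes. PM libraries held 289.6, 282 and 278 FPKM, GM libraries held 139, 117 and 123 FPKM, and DM libraries held 1991, 1987 and 1800.2 FPKM. Every DM library was above every PM library, and every PM library above every GM library. ACTA2 fell from PM to GM by 2.48-fold (fitted log2 change -1.31, SE 0.08, adjusted p = 2.91e-07 by edgeR). It rose 15.8-fold from GM to DM (fitted log2 change 3.98, SE 0.09, adjusted p = 4.48e-10 by edgeR). That rise took place 86 in the order of fold changes among the 14796 genes tested. Against PM the DM level was 6.39-fold higher (fitted log2 change 2.68, SE 0.09, adjusted p = 2.10e-09 by edgeR). By FPKM, ACTA2 moved from rank 686 to 853 in GM to rank 40 to 56 in DM, and its reads made up 0.379% to 0.419% of each DM library.

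**Figure D1:**
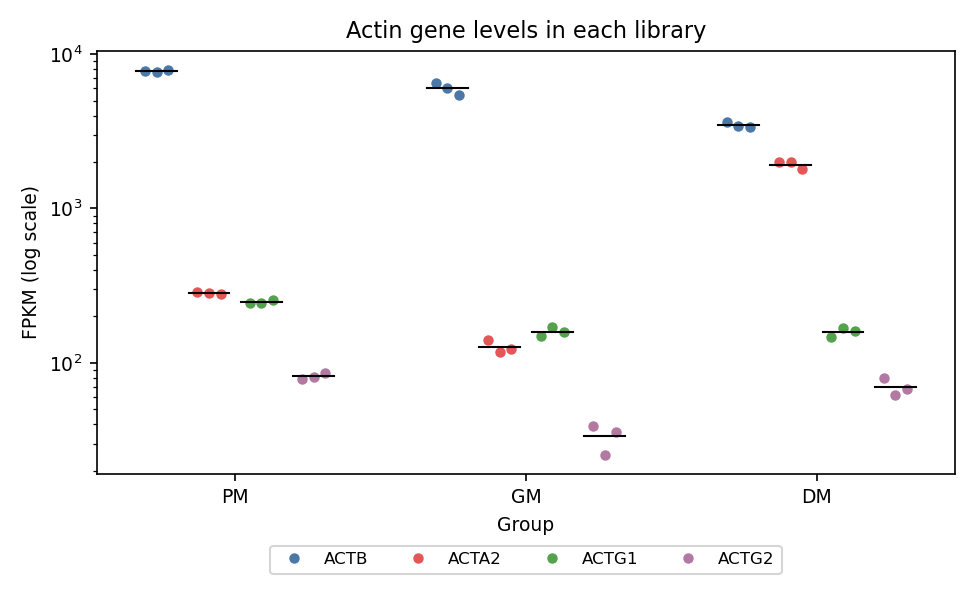
FPKM of the 4 actin genes in each library (points, log scale) by group, with the mean of 3 replicates as a black line. ACTB lies highest in all groups and is lower in DM, while ACTA2 lies at 117 to 139 FPKM in GM and at 1800.2 to 1991 FPKM in DM.

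Cytoplasmic ACTG1 (ENSGALG00000001381, chromosome 10, 2445978 to 2448023, plus strand) was present at 245, 245 and 253 FPKM in PM, 149, 172 and 157 FPKM in GM and 147, 169 and 161 FPKM in DM. PM libraries stood above all others, and the GM and DM libraries overlapped. ACTG1 fell from PM to GM (fitted log2 change -0.79, SE 0.07, adjusted p = 3.20e-06 by edgeR) and was also lower in DM than in PM (fitted log2 change -0.74, SE 0.07, adjusted p = 4.29e-06 by edgeR). Between DM and GM it did not pass the test (edgeR adjusted p = 0.559), and the approximate 95% interval of the log2 fold change ran from -0.089 to 0.19. No scale tried put ACTG1 past the threshold in that comparison.

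Visceral smooth muscle ACTG2 (ENSGALG00000041634, chromosome 22, 2844726 to 2847392, plus strand) was the least abundant of the 4 in every library. Its levels were 79.0, 81.5 and 85.8 FPKM in PM, 39.1, 25.4 and 35.5 FPKM in GM and 79.2, 61.6 and 67.6 FPKM in DM. GM lay below both other groups, and PM and DM overlapped, with DM replicate 1 just above PM replicate 1. ACTG2 fell from PM to GM (fitted log2 change -1.44, SE 0.16, adjusted p = 2.23e-05 by edgeR) and rose from GM to DM (fitted log2 change 1.11, SE 0.16, adjusted p = 1.50e-04 by edgeR). DM against PM did not pass (log2 fold change -0.33, 95% interval -0.63 to -0.028, edgeR adjusted p = 0.0824). The comparison of DM with PM passed without DM replicate 1 (log2 fold change -0.45, edgeR adjusted p = 0.0378), with PM and DM fitted alone (edgeR adjusted p = 0.00720) and with a replicate block (edgeR adjusted p = 0.0350).

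In all, 0 members rose and 4 fell from PM to GM, a comparison in which 66.1% of all tested genes were called (32.0% rose and 34.1% fell). From GM to DM 2 rose and 1 fell, where 61.1% of tested genes were called (30.8% rose and 30.3% fell). From PM to DM 1 rose and 2 fell, where 66.2% of tested genes were called (33.5% rose and 32.7% fell). Most tested genes were called in each comparison, so a call alone sets no member apart. The median log2 fold change of the members was -1.05, 0.58 and -0.53 in these comparisons, against -0.012, -2.2e-04 and 0.020 over all tested genes. On log2(FPKM + 0.1) the median of all tested genes was 0.13 from PM to GM, and beside it ACTB stood at -0.38, ACTG1 at -0.64, ACTA2 at -1.16 and ACTG2 at -1.32. The 3 comparisons share libraries and are not independent of each other. The deposited PM files list 25950 features each and those of GM and DM list 26591, so PM cells and a difference in how their files were made cannot be told apart.

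**Figure D2:**
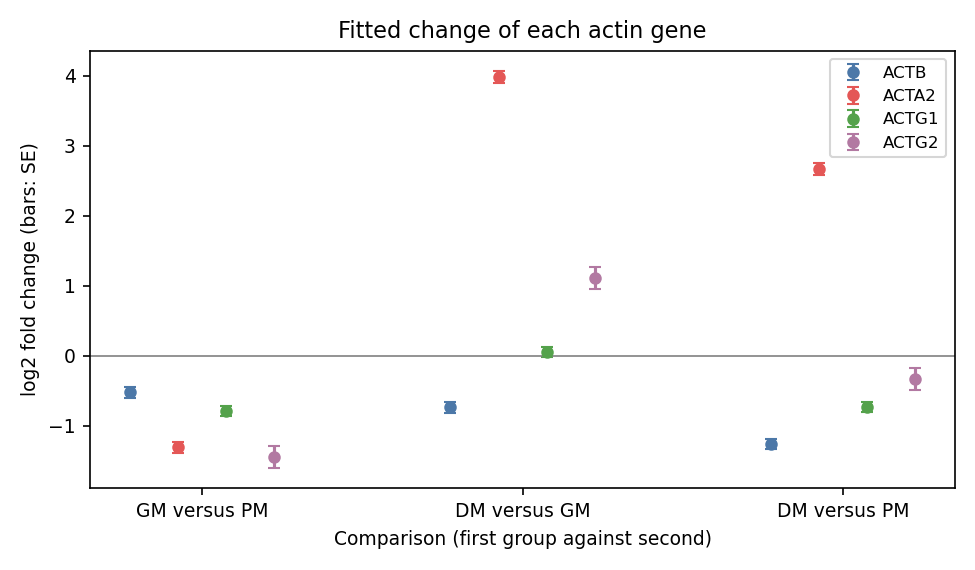
Fitted log2 fold change of each actin gene in the 3 comparisons, with bars for the SE and a grey line at no change. All 4 genes lie below the line for GM versus PM, and from GM to DM ACTA2 stands at 3.98, ACTG2 at 1.11, ACTG1 at 0.051 and ACTB at -0.74.

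The measured actin pool was nearly all ACTB in PM and GM, and held a large part of ACTA2 in DM. ACTB made up 92.7% ± 0.0552 of the summed FPKM of the 4 genes in PM, 94.9% ± 0.365 in GM and 61.6% ± 0.933 in DM. ACTA2 supplied 3.37% ± 0.0912, 2.00% ± 0.148 and 34.3% ± 0.956. Single DM libraries held 34.1%, 35.3% and 33.4% of ACTA2, far above every PM and GM library. ACTG1 kept a small share of 2.95% ± 0.0379, 2.53% ± 0.310 and 2.83% ± 0.278, and ACTG2 had 0.976% ± 0.0363, 0.528% ± 0.115 and 1.24% ± 0.132.

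The shares of ACTB, ACTA2 and ACTG2 in summed FPKM did not overlap between any 2 groups. As shares of summed read counts, without length, those of ACTG2 overlapped between PM (0.860% to 0.926%) and DM (0.882% to 1.10%). A two-sided exact permutation test of 3 against 3 libraries cannot go below p = 0.1, and each of these comparisons gave that smallest value (adjusted p = 0.117 over 27 comparisons of shares, ratios and sums). ACTG1's share gave p = 0.1 between GM and PM, 0.3 between DM and GM and 1 between DM and PM in the same exact test. Since shares in a library sum to a whole, a larger ACTA2 share goes with a smaller sum of the other shares. From GM to DM the share of ACTB fell. The mean shares of ACTG2 and, with overlap between libraries, of ACTG1 were higher in DM. The summed level of the 4 genes was 8409 ± 121 FPKM in PM, 6335 ± 541 FPKM in GM and 5615 ± 229 FPKM in DM. GM and DM overlapped in this sum (exact permutation p = 0.2, adjusted p = 0.225), as GM replicate 3 at 5770 FPKM lay below DM replicate 1 at 5841 FPKM.

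**Figure D3:**
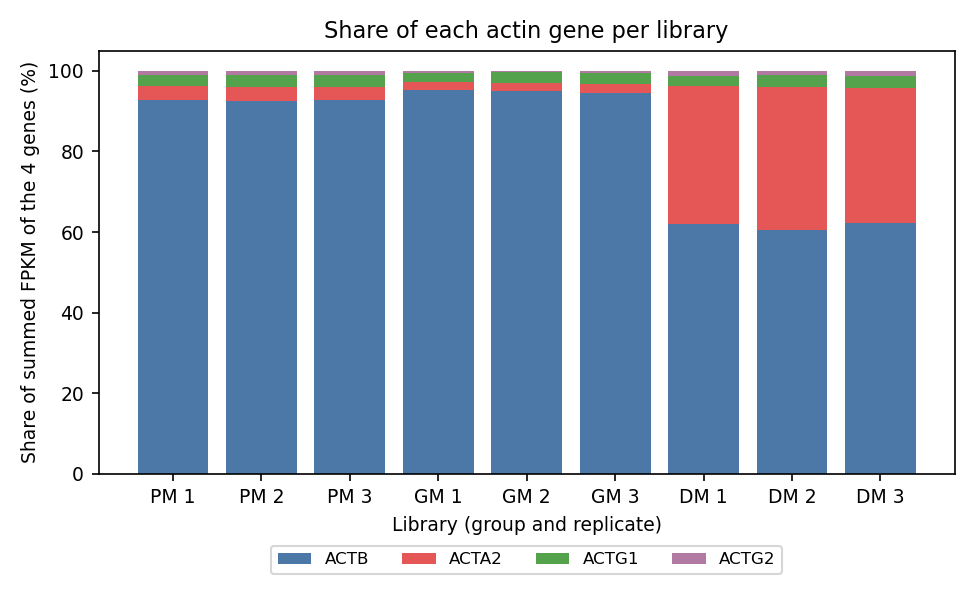
Share of each gene in the summed FPKM of the 4 actin genes, 1 bar per library. ACTB fills 92.6% to 95.2% of the PM and GM bars and 60.6% to 62.3% of the DM bars, where ACTA2 takes 33.4% to 35.3%.

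Ratios of levels per length show how unequally the genes changed. ACTB stood 27.5 ± 0.767 times above ACTA2 in PM, 47.6 ± 3.73 times in GM and 1.80 ± 0.0763 times in DM. Between the cytoplasmic actins, ACTB stood 31.4 ± 0.409, 38.0 ± 5.10 and 21.9 ± 2.44 times above ACTG1, with the DM libraries below all PM and GM libraries. Between the smooth muscle actins, ACTA2 stood 3.45 ± 0.214 times above ACTG2 in PM and 3.88 ± 0.639 times in GM, which overlapped (exact permutation p = 0.4, adjusted p = 0.415). In DM it stood 28.0 ± 3.76 times above ACTG2. The order of levels was ACTB, ACTA2, ACTG1, ACTG2 in PM and DM, and in GM ACTG1 at 149 to 172 FPKM passed ACTA2 at 117 to 139 FPKM. Neighbours in these FPKM orders did not overlap in any group. The order of ACTG1 and ACTA2 in GM depended on the gene lengths used. With counts divided by listed length, both overlapped in GM, and ACTA2 stood above ACTG1 in GM replicate 1 (2.01% against 1.99% of the sum). In raw reads ACTA2 exceeded ACTG1 in every GM library, at 7092, 5625 and 6993 against 4257, 4628 and 5048.

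The genes with the most similar pattern over the 9 libraries were taken as the 5 with the highest Pearson correlation of log2 CPM, out of 5889 genes with a symbol and a mean of at least 10 FPKM. The libraries fall into 3 separate groups, so these r values mainly compare 3 group levels and are given as a description. For ACTA2 they were CCPG1, an autophagy receptor of the endoplasmic reticulum (r = 0.997), the matricellular gene SMOC2 (0.997), the glutathione-degrading enzyme CHAC1 (0.995), the glyoxalase GLO1 (0.995) and the matrix protein SPON1 (0.995). SMOC2 stood at 2.79 ± 0.259, 0.893 ± 0.116 and 27.7 ± 2.23 FPKM in PM, GM and DM, and CHAC1 at 18.6 ± 1.31, 8.31 ± 1.12 and 184 ± 36.9 FPKM. A high r does not mean a change of like size. CCPG1 changed less than ACTA2, at 36.4 ± 1.16, 28.2 ± 0.565 and 76.2 ± 2.32 FPKM. So did GLO1, at 81.6 ± 1.33, 73.3 ± 2.94 and 141 ± 2.14 FPKM.

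For ACTB the 5 genes were the muscle regulator MYF6 (r = 0.998), the antiproliferative factor TOB1 (0.997), the mitotic ubiquitin enzyme UBE2C (0.995), the immune checkpoint gene VSIR (0.995) and the lectin LMAN2L (0.995). UBE2C stood at 317 ± 16.9, 132 ± 34.5 and 24.7 ± 3.20 FPKM, a wider fold range than that of ACTB. For ACTG1 they were TM2D3, the cytochrome oxidase subunit COX5A, the mitochondrial thiolase ACAA2, the autophagy gene ATG12 and RPS6KA (r = 0.994 to 0.996). For ACTG2 they were AP5Z1, the GTPase ARF5, the lysosomal sphingomyelinase SMPD1, the actin-associated PDLIM7 and the ciliary gene IFT57 (r = 0.976 to 0.980).

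Among the members themselves, log2 CPM over the 9 libraries gave r = 0.748 for ACTB with ACTG1, 0.641 for ACTG1 with ACTG2 and 0.573 for ACTA2 with ACTG2. It was 0.135 for ACTB with ACTG2, -0.140 for ACTA2 with ACTG1 and -0.717 for ACTA2 with ACTB. All of these rest on the same 3 group levels.

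Most markers of smooth muscle and of fibroblasts were higher in DM than in GM, as ACTA2 was. Of all tested genes, 32.0% rose and 34.1% fell from PM to GM, and 30.8% rose and 30.3% fell from GM to DM. From PM to DM the shares were 33.5% and 32.7%. Marker counts near these shares do not set a list apart. Of 8 smooth muscle markers tested, 6 rose and 1 fell from GM to DM, with a median log2 fold change of 1.21 (5 rose and 1 fell without GM replicate 3, and 5 rose and 2 fell without GM replicate 2). MYOCD, 1 of the 6, passed narrowly (edgeR adjusted p = 0.0485). Its call was lost without GM replicate 2 or 3 or DM replicate 1 or 3. SYNPO2 was not called (log2 fold change -0.62, edgeR adjusted p = 0.0788). TAGLN, an actin-bundling protein of smooth muscle, rose from 222 ± 49.9 to 1179 ± 193 FPKM (fitted log2 change 2.47, SE 0.17, adjusted p = 1.03e-06 by edgeR). The myosin light chain kinase MYLK rose from 4.33 ± 0.394 to 26.5 ± 0.676 FPKM and LMOD1, a smooth muscle leiomodin, from 12.8 ± 1.84 to 57.5 ± 3.13 FPKM. CNN1, smooth muscle calponin, fell from 56.9 ± 21.4 to 30.2 ± 1.40 FPKM (edgeR adjusted p = 0.00907). MYH11, the smooth muscle myosin heavy chain, rose but stayed at 6.18 ± 0.429 FPKM in DM. Single marker genes named here and in the next 3 paragraphs were chosen after their values were seen.

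The sum of the smooth muscle markers was 1446 to 1537 FPKM in PM, 379 to 471 FPKM in GM and 1369 to 1751 FPKM in DM. PM and DM overlapped in this sum, most of which was TAGLN, at 1283 ± 59.3 FPKM in PM and 1179 ± 193 FPKM in DM (edgeR adjusted p = 0.263). Counted by gene, 5 of the 8 rose from PM to DM and 0 fell, with a median log2 fold change of 0.89. These were MYLK (3.02), MYH11 (2.07), SYNPO2 (1.87, or 1.07 with the length trend removed), LMOD1 (1.18) and CALD1 (0.60), beside 2.68 for ACTA2. Between PM and GM 3 of the 8 markers rose and 3 fell, with a median log2 fold change of 0.14. That split turned to 1 rise and 4 falls with the gene length trend removed, with a median of -0.25.

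In the fibroblast list, 2 of the 9 tested rose and 4 fell from PM to GM (2 and 7 without GM replicate 2, 2 and 2 on quantile-normalized values, 1 and 6 with the length trend removed). Of the same 9, 7 rose and 1 fell from GM to DM, and the same counts were found without GM replicate 3. Their sum was 2487 to 2592 FPKM in PM, 1311 to 2172 FPKM in GM and 4418 to 5078 FPKM in DM. LUM, a matrix proteoglycan, rose from 25.1 ± 6.10 to 286 ± 40.2 FPKM and the collagen gene COL1A2 from 649 ± 209 to 2408 ± 170 FPKM, while POSTN fell from 232 ± 35.3 to 68.6 ± 17.0 FPKM. The list called muscle precursor markers, which includes DES, MYOG and TMEM8C, went the other way from GM to DM, with 0 rising and 4 falling of 7. Those that fell were MYF5, MYOD1, MYF6 and DES. The sum was 768 to 888 FPKM in DM against 1624 to 2758 FPKM in GM. From PM to GM 2 of these 7 rose and 3 fell (3 and 1 on quantile-normalized values). The part of other cell types in the ACTA2 and ACTB results was not tested.

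Macrophage markers, 8 in number, all fell from PM to GM, from a sum of 718 to 758 FPKM to one of 82.3 to 190.3 FPKM, over the step in which all 4 actin genes fell. In the step to DM 3 rose and 0 fell, and without GM replicate 3 all 8 rose. Their part in the actin results was not tested. Of 6 endothelial markers tested, 3 rose and 2 fell from PM to GM (0 and 2 on quantile-normalized values, 2 and 1 without PM replicate 2, GM replicate 1 or GM replicate 2) and 2 rose and 2 fell from GM to DM. The defining genes CDH5 and KDR stood at or below 0.329 ± 0.104 and 0.260 ± 0.0871 FPKM on average in each group. CDH5, KDR and TIE1 were those that rose from PM to GM (log2 fold changes 1.44, 2.57 and 1.42). KDR and TIE1 were those that fell from GM to DM (-3.61 and -2.75), so both went the opposite way to ACTA2. Both rest on few reads, with 102 and 71 over the GM libraries and 7 and 9 over DM. CLDN5, a tight junction gene, and EGFL7 went the way of ACTA2 in both steps. CLDN5 stood at 18.9 ± 1.31, 5.14 ± 0.367 and 24.4 ± 2.91 FPKM in PM, GM and DM. EGFL7 stood at 2.89 ± 0.365, 2.04 ± 0.461 and 5.89 ± 0.788 FPKM (log2 fold changes -0.64 and 1.58, edgeR adjusted p = 0.0170 and 3.91e-05). Of 3 cardiac markers tested, 1 rose and 1 fell from PM to GM and 2 rose and 1 fell from GM to DM. The single fall of the first step was lost without PM replicate 1, PM replicate 2 or GM replicate 2, and that of the second without DM replicate 2 or DM replicate 3. HAND2, a factor of heart and of other mesenchyme, rose from 8.90 ± 0.959 to 30.9 ± 4.00 FPKM from GM to DM (fitted log2 change 1.85, SE 0.15, adjusted p = 1.68e-06 by edgeR), and TBX5 rose from 12 reads over the GM libraries to 71 over DM. GATA4 had 0 reads over the PM libraries, 3 over GM and 14 over DM, and NKX2-5 had 2, 3 and 0. MYBPC3, cardiac myosin binding protein, rose from 4.78 ± 0.548 FPKM in PM to 62.3 ± 28.9 FPKM in GM. It was the 1 that fell from GM to DM, to 33.1 ± 2.85 FPKM (log2 fold change -0.87, edgeR adjusted p = 0.0303).

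**Figure D4:**
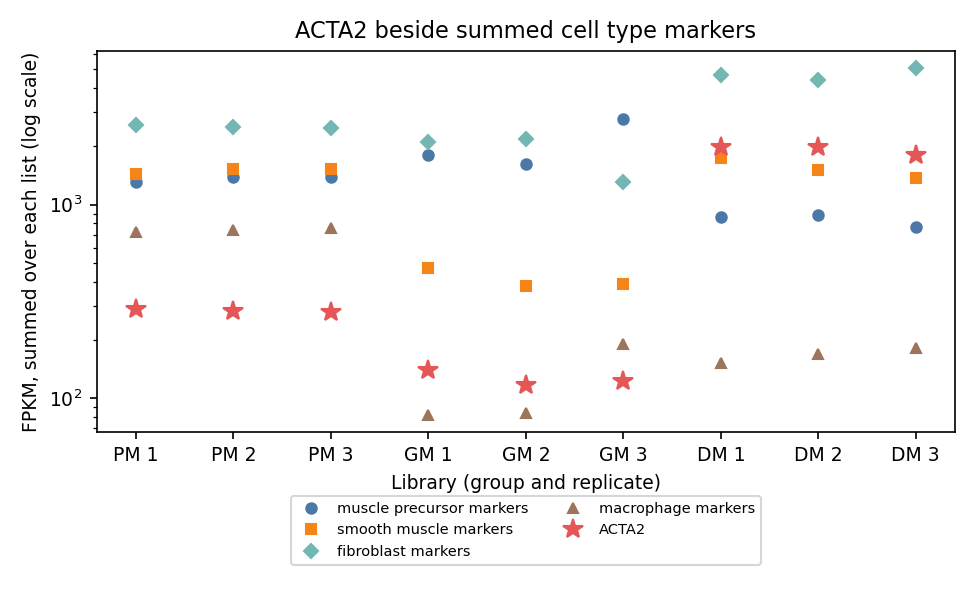
ACTA2 (stars) and the summed FPKM of 4 marker lists in each library, log scale. The smooth muscle sum is 379 to 471 FPKM in GM and 1369 to 1751 FPKM in DM, and the fibroblast sum is 4418 to 5078 FPKM in DM. The muscle precursor sum, which includes DES, MYOG and TMEM8C, is 768 to 888 FPKM in DM.

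Genes that act on actin or control it were read from 7 lists. Of all tested genes, 32.0% rose and 34.1% fell from PM to GM, and 30.8% rose and 30.3% fell from GM to DM. Counts near these shares do not set a list apart. Among the list of SRF, its cofactors and partners, 10 rose and 3 fell from PM to GM of 16 tested (median log2 fold change 0.69), while all 4 actin genes fell. The step to DM brought 4 rises and 9 falls (median -0.54). SRF itself was 73.4 ± 6.24, 74.2 ± 8.46 and 49.4 ± 2.22 FPKM in PM, GM and DM, and its fall from GM to DM passed (edgeR adjusted p = 9.09e-04). SRF, MKL1, MKL2 and MYOCD were chosen after their values were seen. The actin-sensing cofactors MKL1 and MKL2 rose from PM to GM, MKL1 from 13.6 ± 2.34 to 29.5 ± 4.39 FPKM and MKL2 from 2.86 ± 0.203 to 12.1 ± 0.606 FPKM. From GM to DM, where ACTA2 rose, MKL2 fell to 6.57 ± 1.04 FPKM (log2 fold change -0.83, edgeR adjusted p = 6.93e-05). MKL1 stood at 23.6 ± 1.25 FPKM in DM and was not called (-0.27, edgeR adjusted p = 0.104). MYOCD, the smooth and cardiac muscle cofactor, was 4.25 ± 0.787 FPKM in GM and 5.23 ± 0.527 FPKM in DM, and its narrow call (edgeR adjusted p = 0.0485) was lost without GM replicate 2 or 3 or DM replicate 1 or 3 (edgeR adjusted p = 0.109, 0.130, 0.143 and 0.115).

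ABRA, an actin-binding activator of SRF signalling in striated muscle, had the largest rise of this list from GM to DM, from 5.14 ± 1.53 to 52.3 ± 4.11 FPKM (fitted log2 change 3.39, SE 0.18, adjusted p = 7.87e-08 by edgeR). CSRP3, the muscle LIM protein, fell from 79.3 ± 32.1 to 4.54 ± 1.40 FPKM over the same step, and the actin-binding LIM gene ABLIM3 fell from 22.5 ± 13.5 to 3.21 ± 0.314 FPKM. ABLIM3 had risen from PM to GM (log2 fold change 2.47), while CSRP2 fell, from 1511 ± 41.7 to 332 ± 47.3 FPKM. Leaving out GM replicate 3 gave ABLIM3 a log2 fold change of 1.83 for the first step and of -2.13 for the second.

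Sarcomeric thin filament partners split from PM to GM into 8 that rose and 5 that fell of 15 tested. NRAP, TMOD1, LMOD2, LMOD3, ACTN2, KLHL40, KLHL41 and FHOD3 rose, and TPM1, TPM3, CAPZA1, CAPZA2 and CAPZB fell. The median log2 fold change of the 15 was 0.77, and 0.39 with GM replicate 3 left out. On quantile-normalized values 10 rose and 1 fell. The Z-disc crosslinker ACTN2 rose from 29.5 ± 2.19 to 382 ± 193 FPKM (fitted log2 change 3.56, SE 0.34, adjusted p = 3.23e-05 by edgeR). The kelch protein KLHL41 rose from 34.9 ± 1.07 to 226 ± 60.9 FPKM, and LMOD3, which nucleates sarcomeric actin, rose by 2.60 on the log2 scale, or by 1.96 with GM replicate 3 left out. Between GM and DM 1 rose and 7 fell, among them KLHL41 to 39.4 ± 2.60 FPKM, KLHL40 from 36.1 ± 12.2 to 9.83 ± 0.465 FPKM and ACTN2 to 114 ± 4.72 FPKM. Without GM replicate 3, 5 rose and 6 fell over that step, and the median log2 fold change turned from -0.24 to 0.067. From PM to DM 7 of the 15 rose and 5 fell (5 and 5 without PM replicate 1, 2 or 3 or DM replicate 1). Those that rose were NRAP (log2 fold change 2.37), TMOD1 (2.30), LMOD3 (2.19), ACTN2 (1.86), FHOD3 (1.25), LMOD2 (0.76) and KLHL40 (0.61). TPM1, TPM3, TMOD4, CAPZA1 and CAPZA2 fell.

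Of 13 monomer-binding and filament-severing genes, 2 rose and 11 fell from PM to GM (median log2 fold change -0.49, and 4 rises and 8 falls on quantile-normalized values). SCIN, a severing protein, fell from 8.77 ± 0.0553 to 2.54 ± 0.279 FPKM and GSN, gelsolin, from 143 ± 1.28 to 77.2 ± 22.5 FPKM. CAP2, a cyclase-associated protein of muscle, rose from 18.3 ± 2.61 to 74.4 ± 22.0 FPKM. Of the same 13, 4 rose and 4 fell from GM to DM (median 0.022). GSN rose to 169 ± 15.2 FPKM, while CAP2 fell to 32.4 ± 0.490 FPKM and the muscle cofilin CFL2 fell from 438 ± 92.6 to 226 ± 7.28 FPKM. No row carried the symbols PFN1, CFL1 or TMSB4X, major monomer binders of mammalian cells.

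Of 18 actin nucleation genes, 6 rose and 6 fell from PM to GM (8 and 5 on log2 FPKM), near the shares of all tested genes. All 6 that fell were subunits of the complex that starts branched filaments (ACTR3, ARPC1B, ARPC2, ARPC3, ARPC4 and ARPC5), though ACTR3 turned from -0.23 to 0.24 on quantile-normalized values. ARPC4 fell from 354 ± 14.7 to 128 ± 17.5 FPKM and ARPC2 from 344 ± 10.2 to 197 ± 16.1 FPKM. Those that rose included COBL, which starts unbranched filaments, from 9.05 ± 0.986 to 43.8 ± 14.2 FPKM. Over the step to DM 4 rose and 6 fell (1 and 8 on log2 FPKM, 2 and 8 with the length trend removed, 2 and 6 without GM replicate 1 or DM replicate 1), with the formin DIAPH3 falling from 8.66 ± 2.90 to 1.01 ± 0.103 FPKM, COBL falling to 14.4 ± 0.756 FPKM and the branch stabiliser CTTN rising from 108 ± 9.50 to 150 ± 6.64 FPKM.

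Among non-muscle crosslinkers and anchors 8 rose and 5 fell of 17 from PM to GM, and 3 rose and 8 fell from GM to DM. The first split turned with the scale, to 5 rises and 10 falls with the gene length trend removed, and stood at 5 and 4 without PM replicate 2. The 8 falls of the second step became 5 without GM replicate 1 or DM replicate 1, and 4 without DM replicate 2, without DM replicate 3 or with GM and DM fitted alone. VCL, vinculin, rose from 120 ± 17.2 to 236 ± 3.92 FPKM from PM to GM, and the myosin light chain MYL9 and the leukocyte plastin LCP1 fell, MYL9 from 467 ± 19.6 to 241 ± 22.2 FPKM. From GM to DM EZR, ezrin, fell from 54.8 ± 18.7 to 22.5 ± 0.742 FPKM. MYH10, a non-muscle myosin heavy chain, rose from 62.6 ± 8.44 to 210 ± 21.3 FPKM (fitted log2 change 1.81, SE 0.10, adjusted p = 7.57e-08 by edgeR).

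The folding list divided by complex from GM to DM, with 5 rising and 8 falling of 14 (median log2 fold change -0.47). All 7 measured subunits of the chaperonin CCT, which folds newly made actin, fell in this step, as ACTB did. TCP1 fell from 412 ± 13.4 to 220 ± 6.73 FPKM (fitted log2 change -0.85, SE 0.06, adjusted p = 4.31e-07 by edgeR), CCT4 from 353 ± 14.1 to 197 ± 5.51 FPKM and CCT2 from 228 ± 12.3 to 128 ± 3.31 FPKM. The 4 measured subunits of prefoldin, which hands actin to CCT, rose over that step. Scale decided the split from PM to GM. There 1 rose and 5 fell (6 and 3 on log2 FPKM, 9 and 3 on quantile-normalized values, 1 and 3 without GM replicate 1, 0 and 5 without PM replicate 1 or 2, 0 and 4 without PM replicate 3 or GM replicate 2), among those that fell PFDN1 from 242 ± 12.4 to 111 ± 4.49 FPKM, PFDN2 from 288 ± 12.6 to 163 ± 15.3 FPKM and PFDN5 from 184 ± 14.8 to 115 ± 3.98 FPKM. The CCT subunits did not go with ACTB from PM to GM, where ACTB also fell. There CCT2 rose (log2 fold change 0.16), CCT8 fell (-0.24) and TCP1, CCT3, CCT4, CCT5 and CCT7 were not called. SETD3, which methylates a histidine of actin in mammals, rose from 44.0 ± 1.37 to 58.4 ± 1.72 FPKM from GM to DM (edgeR adjusted p = 5.68e-05). SETD3 was chosen after its values were seen.

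Actin-related proteins, the distant relatives outside the conventional actins, had 6 members tested. Between PM and GM 0 rose and 3 fell (1 and 3 with DESeq2 size factors), and between GM and DM 1 rose and 3 fell (0 and 3 with DESeq2 size factors, or without GM replicate 1, GM replicate 2, DM replicate 1 or DM replicate 2). The chromatin subunits ACTL6A and ACTR8 and the nuclear ACTR6 fell in both steps, ACTL6A from 44.2 ± 3.98 to 39.9 ± 7.36 and 20.8 ± 1.06 FPKM. The first fall of ACTL6A (edgeR adjusted p = 0.0334) did not hold with PM replicate 1, PM replicate 3 or GM replicate 3 left out (edgeR adjusted p = 0.117, 0.0681 and 0.0793). ACTL9 had 0 reads in all 9 libraries.

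**Figure D5:**
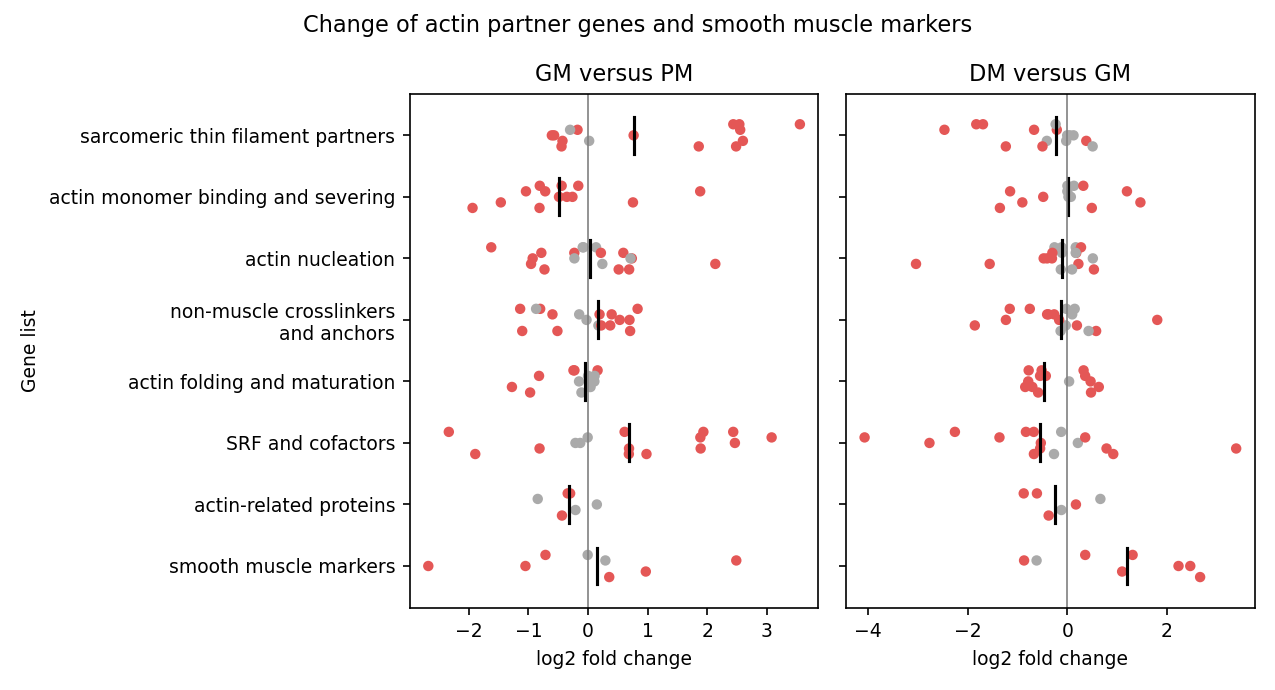
log2 fold change of each tested gene of 7 actin-related lists and the smooth muscle markers, GM versus PM on the left and DM versus GM on the right. Red points passed the test, grey points did not, the vertical grey line is no change and black lines are medians, which for the smooth muscle markers are 0.14 and 1.21.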

How the data were processed

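Per the submitters' processing notes, reads were handled with HISAT and HTSeq. The sources used here give no versions, genome build, annotation or strand setting, and coordinates are printed as the deposited tables list them. The authors deposited, per library, raw read counts per gene, FPKM and a gene length. The lengths behind the authors' FPKM were worked out here from counts, FPKM and summed reads, as the median over libraries. They came to 1432 bases for ACTB, 2068 for ACTA2, 1164 for ACTG1 and 1327 for ACTG2. The listed lengths are 1822, 2671, 1615 and 1327. ACTA2 is named only in the PM tables and was followed in GM and DM by its gene identifier, at the same coordinates. Actin coding sequences are nearly alike, so reads could be split, dropped or misassigned among copies. An 84-base feature inside ACTB and another inside ACTG1 took at most 1 read per library, and no other listed Ensembl gene overlapped a member.

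Features without an Ensembl identifier (1.58% to 2.12% of reads) and 2 broken lines in each GM and DM table were dropped. Counts of 14796 genes kept by filterByExpr were fitted over all 9 libraries with edgeR 4.0.16 in R 4.3.3 (TMM, robust quasi-likelihood, no block). A gene was called where its p, adjusted by Benjamini and Hochberg's method, was below 0.05. The SE was taken as the size of the log2 fold change over the root of the F statistic. Approximate 95% intervals were 1.96 SE each way, which is too narrow with so few libraries. The edgeR step was run on simulated counts in which few genes changed. Most tested genes were called in the data, a setting that this run does not cover. Shares and ratios used FPKM and a two-sided exact permutation test (scipy 1.17.1). Intervals cover the spread between these libraries. No replicate pair agreed within sampling noise, with 5.92 to 62.6 for chi-square over the number of genes.

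Members and lists were chosen with earlier results of these data known, so they give no independent support. The rule named all members, 5 genes of most similar pattern per member and, per pathway list and step, the 3 called genes that changed most with 5 FPKM or more in the higher group. Some genes that this rule selects are not reported here. The alternatives comprised a DESeq2 1.42.0 fit, DESeq2 size factors, no low-count filter, limma 3.58.1 on log2(FPKM + 0.1), on log2(FPKM + 1) and on quantile-normalized values, the length trend removed (lowess, span 0.3), fits of 6 samples, a 2-fold minimum, a replicate block, no mitochondrial features, and leaving out each library.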

Additional observations from a re-analysis of the deposited data

How the results depend on the processing

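The number of members called in each comparison stayed within 1.5 times under 50 of 51 alternatives. The exception was the 2-fold minimum, under which 2 of the 4 genes that fell from PM to GM remained. With so few members that margin is wide, as a change from 3 to 2 or to 4 lies within it. The 2-fold minimum also left 2 of 3 called members from GM to DM and from PM to DM. Of 192 member fold changes under alternatives, 186 kept direction and side of the threshold. ACTG1 from GM to DM, not called in any of them, turned to -0.0059 on log2(FPKM + 0.1) and on log2(FPKM + 1) and to -0.093 with the length trend removed. ACTG2 from PM to DM passed under the 3 alternatives named beside it, and with the replicate block its log2 fold change was -0.34; the block changed no other member's call. Same-numbered libraries did not deviate together (r -0.107 to 0.101), not every library correlated best with one of its own number, and the block moved the calls over all genes from 9777 to 9537, from 9038 to 8755 and from 9788 to 9580. ACTA2 ranged from 3.70 to 4.06 for GM to DM and from -1.38 to -0.85 for PM to GM. On quantile-normalized values ACTG1 shrank to -0.33 from PM to GM and to -0.32 from PM to DM. On the same values ACTA2 shrank to -0.85 from PM to GM and ACTG2 to -0.057 from PM to DM. ACTB from PM to GM was called on them at an adjusted p of 0.0438 by limma.

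As shares of read counts without length, ACTA2 made up 4.82% in PM, 2.88% in GM and 43.2% in DM. In DM, ACTB then made up 53.8%. Counts divided by listed lengths moved no ACTA2 share beyond its SD, but moved ACTG2 to 1.24%, 0.673% and 1.58% in PM, GM and DM and ACTG1 to 2.71% in PM. The planned share of ACTA1 plus ACTC1, and a sum widened to further annotated actins, could not be computed, since no row carries such a name. The median of all tested genes moved by over 0.1 log2 units on log2(FPKM + 0.1) from PM to GM, as given above. The counts without GM replicate 3 were chosen after seeing the data. The effect of depth on the members was not tested.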
